A study of Mus musculus with 12 samples.

Results

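The genes of major histocompatibility complex (MHC) class II antigen presentation were examined in thymocytes of AND-TCR–transgenic and C57BL/6 mice. They were 9 genes, H2-Aa, H2-Ab1, H2-Eb1, Cd74, H2-DMa, H2-DMb1, H2-Oa, H2-Ob and Ciita, chosen by name out of 15964 genes with a probe set of their own on the arrays. Every probe set annotated with 1 of these symbols and no other was taken, which gave 14 probe sets, 10 on Affymetrix U74Av2, 1 on U74Bv2 and 3 on U74Cv2 arrays. C57BL/6 mice, an inbred strain of the H-2b MHC haplotype, were the wild type. AND-TCR–transgenic mice, analyzed on an H-2b background as well, carry a rearranged T cell receptor (TCR) that is restricted by MHC class II and selects thymocytes toward the CD4 lineage. The promoter of the transgene, the exact age of the mice and how many mice gave each RNA are not stated in the sources used here. Total thymocyte RNA of each group was hybridized 2 times to each array type, giving 12 arrays. The paired hybridizations are described as independent experiments, but nothing states that they came from separate mice, so p-values measure only the spread between them, which may be technical.

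A class II molecule is a dimer of an α and a β chain that displays peptides from endosomes to CD4 T cells. The invariant chain Cd74 escorts new dimers and blocks their groove until proteases cut it down to a short peptide. The H2-DM dimer then exchanges that peptide for others, the H2-O dimer restrains H2-DM, and the transactivator Ciita switches the genes on by joining factors bound at the X and Y boxes of their promoters. In the thymus, class II is known from epithelial cells, dendritic cells, macrophages and B cells, and positive selection of CD4 T cells depends on it, whereas mouse thymocytes themselves are not known as a main source.

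Promoters of 6 of the 9 genes were found in the RefSeq set for GRCm38.p6, and 5 of them are shown because they hold the box pair through which class II genes are known to be read together. Each line gives the 150 bases that precede the transcription start, 5′ to 3′ in the direction of the gene, and capitals mark the core of the X box (GNAAC) and the Y box (GATTGG).
H2-Aa, chr17:34287824-34287973, minus strand: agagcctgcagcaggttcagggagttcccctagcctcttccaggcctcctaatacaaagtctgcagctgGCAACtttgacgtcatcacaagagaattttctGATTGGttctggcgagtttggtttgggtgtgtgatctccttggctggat
H2-Eb1, chr17:34305717-34305866, plus strand: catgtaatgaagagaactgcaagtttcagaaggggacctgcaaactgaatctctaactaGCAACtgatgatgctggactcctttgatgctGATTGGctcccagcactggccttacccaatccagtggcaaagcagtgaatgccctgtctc
H2-Ob, chr17:34238755-34238904, plus strand: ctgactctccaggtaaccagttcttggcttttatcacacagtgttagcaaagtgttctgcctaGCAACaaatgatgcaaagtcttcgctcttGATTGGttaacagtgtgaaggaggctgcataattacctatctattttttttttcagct
H2-Oa, chr17:34092229-34092378, plus strand: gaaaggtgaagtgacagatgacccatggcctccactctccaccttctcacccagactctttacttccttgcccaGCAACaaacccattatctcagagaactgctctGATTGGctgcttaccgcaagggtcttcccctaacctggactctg
H2-DMb1, chr17:34153041-34153190, plus strand: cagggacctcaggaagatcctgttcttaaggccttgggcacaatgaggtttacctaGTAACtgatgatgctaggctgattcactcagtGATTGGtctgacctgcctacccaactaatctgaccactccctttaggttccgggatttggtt
In these 5 promoters the X box core began 76 to 94 bases before the start and the Y box 44 to 62 bases before it, and the distance from one to the other was 32 bases in H2-Aa, H2-Oa and H2-DMb1, 31 bases in H2-Eb1 and 29 bases in H2-Ob. Over all 32851 RefSeq promoters of 300 bases (250 before and 50 after the start), 16.1% held GATTGG and 84.8% held GNAAC on either strand. The pair in this order at 29 to 32 bases, on the strand of the gene, was held by 0.122% of them, and the spacing was read from the class II genes themselves. The motifs do not overlap each other. Both listed promoters of H2-DMa lacked the pair, which says only that these letters are not in those windows.

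Of 33 other genes found with the pair outside chromosome 18, 19 had a probe set and 8 were tested between the groups. None of these 8 was called higher or lower by limma, 1 was higher at an unadjusted p under 0.05 (7.47% of all tested probe sets), and their median log2 fold change was 0.03. H2-Eb2, a class II β chain gene, also held the pair, and its probe set read between -305.6 and 86 on all 4 arrays, under the detection limit.

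Intensities were scaled by the authors to a common mean on every array and can be negative. The detection limit, set at 2 noise SDs from the negative values, was 420.8 on U74Av2, 869.4 on U74Bv2 and 1579 on U74Cv2, and 45.1% to 48.9%, 37.2% to 39.5% and 23.1% to 25.6% of probe sets per array lay above it. Testing required both arrays of at least 1 group to be above the limit, which held for 12844 of 36701 probe sets, and values under the limit were raised to it before the log2 transform. Arrays with the same hybridization number were run on the same day in both groups, whereas fluidics module 2 served every C57BL/6 array and module 4 every AND-TCR–transgenic array, so that module and group cannot be told apart. Transcripts tied to sex also differed between the groups. Xist read 2878 and 3001 in C57BL/6 and under the limit in AND-TCR–transgenic thymocytes on U74Av2. A U74Bv2 probe set for Xist exceeded its limit only in 1 AND-TCR–transgenic array, at 1190 (417 in the other, 563 and 357 in C57BL/6). The Y-linked Eif2s3y read 1649 and 1529 in AND-TCR–transgenic thymocytes and under the limit in C57BL/6. The Y-linked Kdm5d read -18 and -127 in C57BL/6 and 2897 and 2868 in AND-TCR–transgenic thymocytes at a U74Bv2 probe set, and its other probe sets were under the limit. Sex, as read from these transcripts, thus went with the group and cannot be told apart from it. Thymocyte identity was plain in both groups, as all 10 thymocyte markers with a probe set were detected and tested, with a median log2 fold change of -0.42, 0 called higher and 4 called lower. Cd3d, Cd3e and Cd3g of the CD3 complex had log2 fold changes of 0.40, 0.06 and 0.15 and Cd4 had -0.56, none of them called. The 4 called were Rag1, Rag2, Cd8a and Cd8b1, known to be high at the double-positive stage (limma adjusted p between 0.00222 and 0.0363), and without any 1 hybridization 0 probe sets were called on any array type.

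The α chain gene H2-Aa and the β chain genes H2-Ab1 and H2-Eb1, together with Cd74, gave higher readings in AND-TCR–transgenic thymocytes on both hybridizations, by about the same modest amount, and none of the differences passed the test. Of the 7 member probe sets tested, all on U74Av2, 0 were called higher and 0 lower by limma at an adjusted p under 0.05, where 0.483% of all tested probe sets were called higher and 0.568% lower, 1.05% in either direction. At an unadjusted p under 0.05, 4 were higher (7.47% of all) and 0 were lower (6.51% of all). In 5 of the 7 both AND-TCR–transgenic arrays lay above both C57BL/6 arrays, which was the case for 23% of all tested probe sets, and in 0 of the 7 both lay below, as for 21.4% of all. With the hybridization number as a block the count of called members was again 0 in each direction, where 1.21% of all tested probe sets were called higher and 1.18% lower. The median log2 fold change of the 7 was 0.59, beside 0.02 over all tested probe sets. H2-Ob is in these counts although it was tested only because both AND-TCR–transgenic arrays were above the limit, so its direction was partly set by that requirement. H2-Oa, the only member with a negative log2 fold change, was tested only because both C57BL/6 arrays were above it, so the same holds for its direction. Over the 5 members above the limit on all 4 arrays (H2-Aa, H2-Ab1, H2-Eb1, Cd74 and H2-DMa), 3 were higher and 0 lower at an unadjusted p under 0.05, against 6.04% and 5.4% of the 10053 probe sets of that kind. In 4 of the 5 both AND-TCR–transgenic arrays lay above both C57BL/6 arrays, against 21.5%, and the median log2 fold change was 0.59, against 0.02. These 7 share the same 4 arrays and are not independent replicates. An exact permutation test of 2 arrays against 2 cannot give a two-sided p below 0.333, so none was run for single genes.

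H2-Aa encodes the α chain of I-A, the class II molecule of H-2b mice. Its U74Av2 probe set read 3576 and 3564 in C57BL/6 thymocytes and 6634 and 4990 in AND-TCR–transgenic thymocytes, in the order first and second hybridization. The groups did not overlap, and the C57BL/6 pair lay close together while the AND-TCR–transgenic pair was farther apart. The log2 fold change was 0.69 ± 0.19 (SE, 95% interval 0.25 to 1.13, limma adjusted p = 0.169), and with the hybridization number as a block the adjusted p was 0.0649. In bulk RNA such as this, more cells that express a gene and more of its RNA per cell cannot be told apart.

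H2-Ab1 encodes the β chain that pairs with H2-Aa. It read 1041 and 1186 in C57BL/6 and 1752 and 1592 in AND-TCR–transgenic thymocytes, again without overlap. The log2 fold change was 0.59 ± 0.29 (SE, 95% interval -0.10 to 1.28, limma adjusted p = 0.435), so that the interval reached from slightly lower to more than doubled.

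H2-Eb1 encodes the β chain of I-E. It read 2979 and 3411 in C57BL/6 and 4817 and 4864 in AND-TCR–transgenic thymocytes, where the transgenic pair nearly coincided above the others. The log2 fold change was 0.60 ± 0.17 (SE, 95% interval 0.20 to 1.0005, limma adjusted p = 0.18). The α chain gene of I-E, H2-Ea, is known to be silent in the H-2b haplotype, and its probe set read -34.3 and -9.8 in C57BL/6 and 77.6 and -57.9 in AND-TCR–transgenic thymocytes. All 4 of these lay under the limit.

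Cd74 read 8159 and 9903 in C57BL/6 and 12497 and 13066 in AND-TCR–transgenic thymocytes. The groups did not overlap, with a log2 fold change of 0.51 ± 0.15 (SE, 95% interval 0.16 to 0.86, limma adjusted p = 0.193). With the hybridization number as a block the adjusted p was 0.0781.

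**Figure D1:**
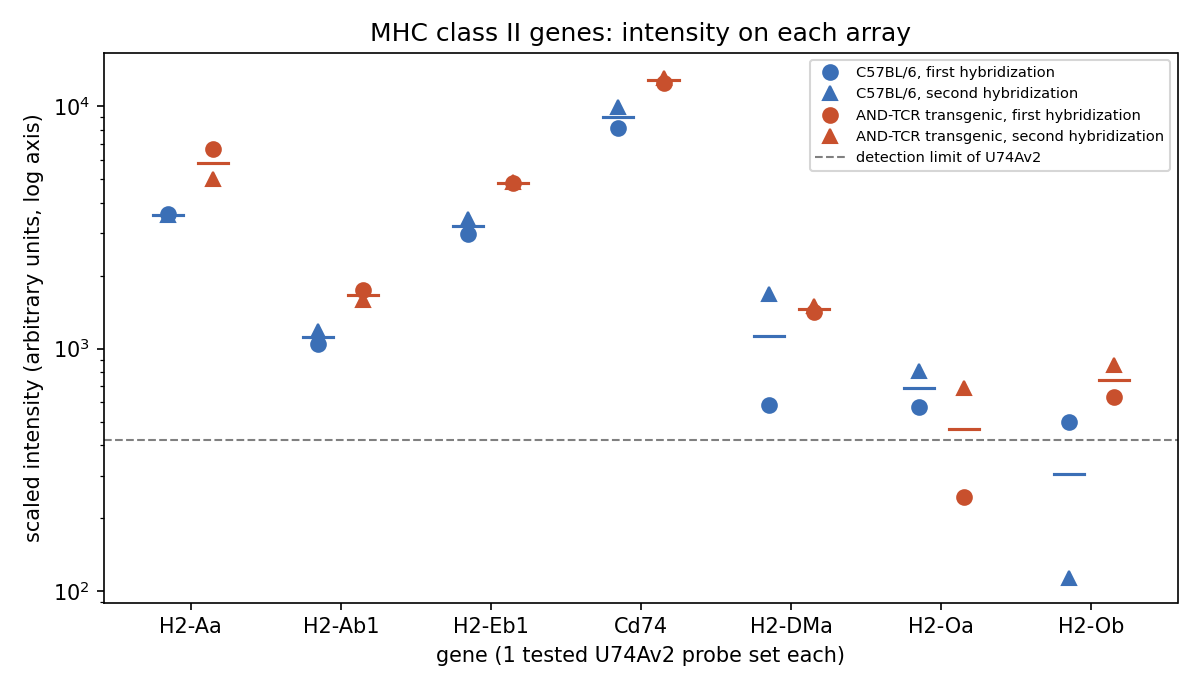
Scaled intensity on a log axis (y) of the 7 tested class II probe sets (x) on each of 4 U74Av2 arrays, with circles for first and triangles for second hybridizations, blue for C57BL/6 and orange for AND-TCR transgenic, short bars at the means of 2 arrays and a dashed line at the detection limit of 420.8. Both orange points lie above both blue points for H2-Aa, H2-Ab1, H2-Eb1, Cd74 and H2-Ob, and the groups overlap for H2-DMa and H2-Oa.

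Within each experiment the ratios of these 4 genes pointed the same way. In the first hybridizations the log2 ratio of AND-TCR–transgenic over C57BL/6 thymocytes was 0.89 for H2-Aa, 0.75 for H2-Ab1, 0.69 for H2-Eb1 and 0.62 for Cd74. In the second it was 0.49, 0.43, 0.51 and 0.40 in the same order. Each of the 4 thus had the larger ratio in the first experiment, and no test of that difference was run.

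**Figure D2:**
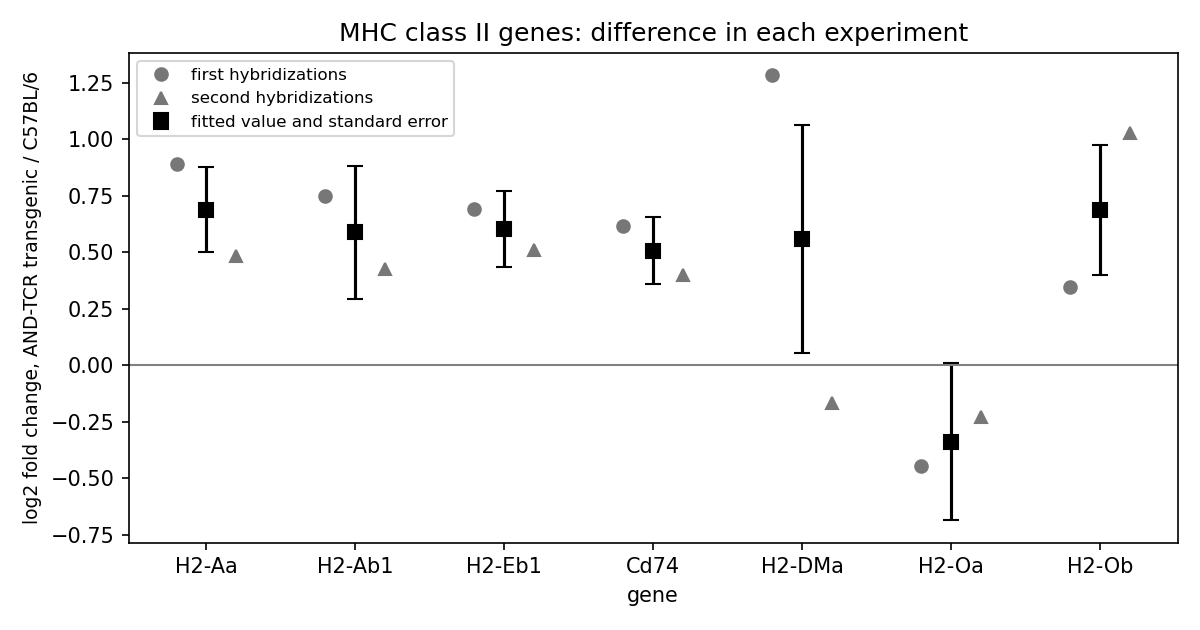
Log2 ratio between AND-TCR–transgenic and C57BL/6 thymocytes (y) for each tested class II gene (x), with circles for the first and triangles for the second hybridizations and squares with bars for the limma estimate and its standard error (n = 2 hybridizations per group). H2-Aa, H2-Ab1, H2-Eb1 and Cd74 lie between 0.51 and 0.69 with both experiments above 0, whereas the experiments of H2-DMa lie at 1.28 and -0.17.

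The genes of peptide exchange were near the detection limit or spread widely. H2-DMa, a chain of the exchange factor, read 585 and 1679 in C57BL/6 and 1423 and 1496.5 in AND-TCR–transgenic thymocytes. The groups overlapped, since the C57BL/6 arrays held both the lowest and the highest reading, and the log2 fold change of 0.56 had a standard error of 0.50 (adjusted p = 0.689 from limma). Without the first C57BL/6 hybridization it was -0.20, the opposite direction. A second H2-DMa probe set, of the type that shares probes with related sequences, was negative on all 4 arrays, between -976 and -236.9.

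Its partner H2-DMb1 read 240 and 664 in C57BL/6 and 608 and 235 in AND-TCR–transgenic thymocytes. Only 1 array of each group was above the limit, so it was not tested. Another probe set is annotated to both H2-DMb1 and its close relative H2-DMb2 and was left out by the rule, and it read -107.6 to 241.9. H2-DMb2 had a probe set of its own, which was negative on all 4 arrays.

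The chains of H2-O, the inhibitor of H2-DM, gave opposite signs, but each was tested only through the group where it read higher. Both C57BL/6 arrays were above the limit for H2-Oa and both AND-TCR–transgenic arrays for H2-Ob, so both directions were partly set by that requirement. H2-Ob, the β chain gene, read 497 and 114 in C57BL/6 and 632 and 857 in AND-TCR–transgenic thymocytes. Both AND-TCR–transgenic arrays and 1 of 2 C57BL/6 arrays were above the limit, and its log2 fold change with the floor was 0.69 ± 0.29 (SE, limma adjusted p = 0.35). H2-Oa, the α chain gene, read 574 and 807 in C57BL/6 and 245 and 689 in AND-TCR–transgenic thymocytes, with overlapping groups and a log2 fold change of -0.34 ± 0.35 (SE, limma adjusted p = 0.729). With 1 AND-TCR–transgenic array under the limit, H2-Oa had a log2 fold change of 0.02 when that first hybridization was left out.

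Ciita was under the detection limit on every array. Its U74Av2 probe set read 129.6 and 74.4 in C57BL/6 and 340.1 and 202.6 in AND-TCR–transgenic thymocytes, and its U74Cv2 probe set between -1584 and 257.5, so no fold is given. Of the remaining probe sets of the chain genes, 2 for H2-Aa on U74Cv2 and 1 for H2-Eb1 on U74Bv2, none exceeded the limit of its array type. The higher of the U74Cv2 readings for H2-Aa were 1288 and 1304 in AND-TCR–transgenic thymocytes against 516 and 678 in C57BL/6, all under 1579. In total 6 of the 14 member probe sets were under the limit on all 4 of their arrays.

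Apart from Cd74 and Ciita, the genes lie together on chromosome 17 of GRCm38.p6 within 224 kb. From one end they are H2-Oa (chr17:34092379-34095234), H2-DMa (chr17:34119693-34139101), H2-DMb1 (chr17:34153191-34160229), H2-Ob (chr17:34238905-34245908), H2-Ab1 (chr17:34263227-34269418), H2-Aa (chr17:34282744-34287823) and H2-Eb1 (chr17:34305867-34316674). Ciita lies at chr16:10480014-10531064. The 3 chain genes at the H2-Eb1 end had log2 fold changes between 0.59 and 0.69. Next to them H2-Ob had 0.69, a value set by the floor, as it was 0.01 with the floor at 2 times the limit and 1.19 with the floor at 1 noise SD.

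Between them lie genes of MHC class I peptide supply and the chromatin reader Brd2. Of 5 other genes of the interval that were tested, each taken at the brightest of its tested probe sets, 0 were called by limma and the median log2 fold change was 0.02. In 2 of them, Tap1 and Psmb9, both AND-TCR–transgenic arrays lay above both C57BL/6 arrays, and in 0 both lay below, where 23% and 21.4% of all tested probe sets did so. Tap1, a subunit of the peptide transporter for class I, had a log2 fold change of 0.49 ± 0.14 (SE, limma adjusted p = 0.186), and Psmb9, a subunit of the immunoproteasome, had 0.29 (standard error 0.20). Psmb8, the subunit encoded next to Tap1, had -0.04 (standard error 0.13) and Brd2 had 0.02 (standard error 0.23). Tap2, the other transporter subunit, had -0.45 (standard error 0.41) at its U74Cv2 probe set, the brighter and counted one, and -0.12 (standard error 0.17) at its U74Av2 probe set. At the U74Av2 probe set both AND-TCR–transgenic arrays lay below both C57BL/6 arrays, with 3992 and 3580 against 3999 and 4202.

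**Figure D3:**
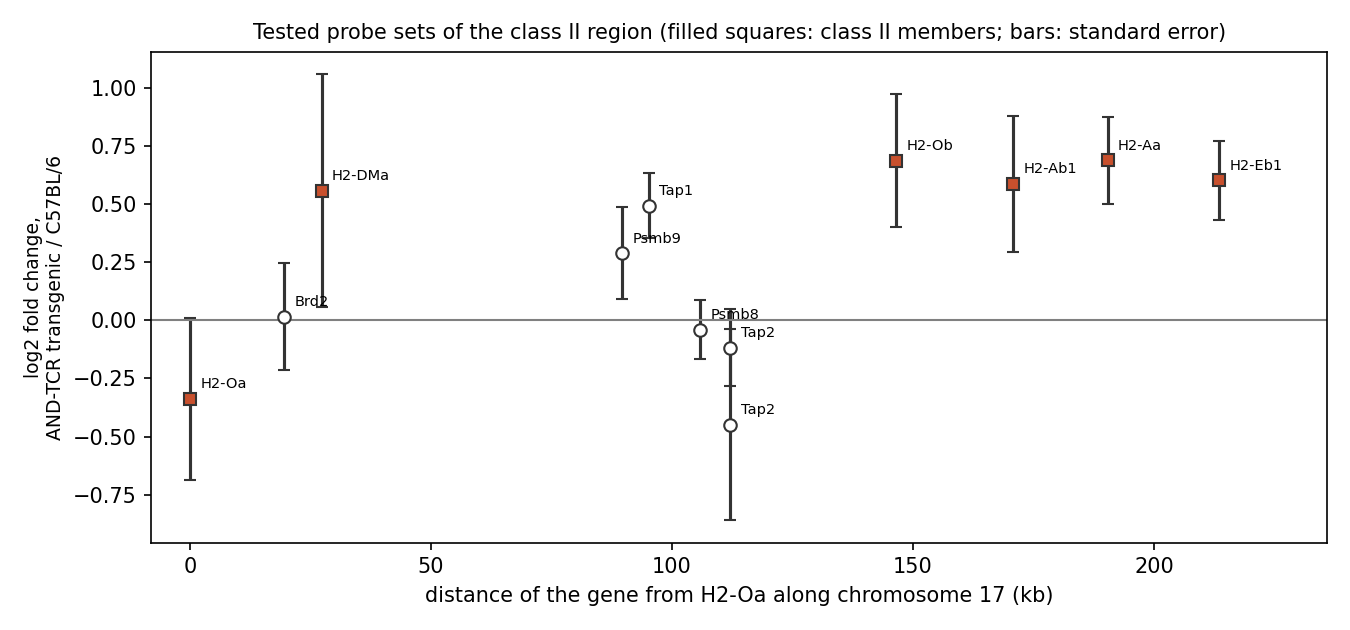
Log2 ratio between AND-TCR–transgenic and C57BL/6 thymocytes (y, bars for the standard error, n = 2 hybridizations per group) against the distance in kb of each gene from H2-Oa along chromosome 17 (x), 1 point per tested probe set. Filled squares mark class II genes and open circles the other genes, and H2-Ab1, H2-Aa and H2-Eb1 at the right lie between 0.59 and 0.69, beside H2-Ob, whose position depends on the floor.

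Other genes of the class II pathway were counted from a list of 16 genes with a probe set, of which 10 were tested. In limma 1 was called higher (0.483% of all tested probe sets), 0 were called lower (0.568% of all) and 9 did not pass the test. The called gene was Ctsl, the cathepsin known to process the invariant chain in thymic epithelium. It read 3257 and 3623 in C57BL/6 and 9089 and 10333 in AND-TCR–transgenic thymocytes, with no overlap and a log2 fold change of 1.496 ± 0.16 (SE, limma adjusted p = 0.0111). Its log2 ratio was 1.481 in the first and 1.512 in the second hybridizations. Without any 1 hybridization 0 of all tested probe sets were called, Ctsl among them.

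Ctss, the cathepsin known for this step in dendritic cells and B cells, read 2426 and 2159 in C57BL/6 and 4241 and 3291 in AND-TCR–transgenic thymocytes. Its groups did not overlap, and its log2 fold change of 0.71 ± 0.21 (SE, limma adjusted p = 0.203) did not pass the test. Ifi30, a thiol reductase of antigen processing, was under the limit on both C57BL/6 arrays, with 339 and 240, and above it on both AND-TCR–transgenic arrays, with 624 and 550. Its fold with the floor was 1.39 (95% interval of the log2 fold change -0.07 to 1.03, limma adjusted p = 0.426). Ifi30 was tested only because both AND-TCR–transgenic arrays were above the limit, so its direction was set by that requirement and the floor.

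The tetraspanin Cd82, found with class II in endosomes, had a log2 fold change of 0.74 ± 0.20 (SE, limma adjusted p = 0.162). Another tested Cd82 probe set had 0.07 ± 0.45 (SE, limma adjusted p = 0.97), with overlapping groups. The other named proteases had smaller estimates, with log2 fold changes of 0.39 for Ctsb, 0.03 for Ctsd and 0.14 for Ctsh. The tetraspanin Cd63 had 0.12. Over the 10 tested genes the median log2 fold change was 0.26. The ubiquitin ligases Marchf1 and Marchf8, which are known to remove class II from the surface, were never above the limit.

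The factors that bind class II promoters showed no called change. Of 17 listed genes with a probe set 15 were tested, and limma called 0 higher and 0 lower. The median log2 fold change was 0.11, and 1 gene was higher at an unadjusted p under 0.05 (7.47% of all tested probe sets). The subunits of RFX, the complex at the X box, had log2 fold changes of 0.10 for Rfx5 (standard error 0.19), 0.04 for Rfxap (standard error 0.24) and 0.24 for Rfxank (standard error 0.33). Nfya, a subunit of the Y box factor NF-Y, had -0.23 (standard error 0.21).

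The gene at an unadjusted p under 0.05 was Irf1, an interferon regulatory factor that acts on the Ciita gene. It read 4252 and 3936 in C57BL/6 and 5401 and 6207 in AND-TCR–transgenic thymocytes (log2 fold change 0.50 ± 0.16 SE, limma adjusted p = 0.232). Irf4 was under the limit on both C57BL/6 arrays and read 423.1 and 1527 in AND-TCR–transgenic thymocytes. Its fold with the floor was 1.91 (95% interval of the log2 fold change -0.37 to 2.24, limma adjusted p = 0.521). The log2 ratio was 0.008 in the first and 1.86 in the second hybridizations. Irf4 was tested only because both AND-TCR–transgenic arrays were above the limit, so its direction was set by that requirement and the floor. Irf1 and Irf4 were chosen after their values were seen.

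Since class II in the thymus is known mainly from cells other than thymocytes, marker genes of those cells were set beside the members, and their part in the class II readings was not tested. Summed over the U74Av2 probe sets of a list, with negative values as 0, the class II genes came to 17779 and 21402 in C57BL/6 and 28947 and 27993 in AND-TCR–transgenic thymocytes. No marker list of these other cells had a gene called by limma.

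Markers of B cells did not share 1 direction. Their sum was 39891 and 44133 in C57BL/6 and 33773 and 34994 in AND-TCR–transgenic thymocytes, but the immunoglobulin heavy chain gene Ighm gave 70% to 84.2% of it. Without Ighm, a choice made after the values were seen, the sum turned, with 7861 and 6966 in C57BL/6 and 9348 and 10507 in AND-TCR–transgenic thymocytes. That turn rested on Blk, whose 2 probe sets together differed by more than the sum did in both hybridizations. The brighter is given below, and the other read -10 and 186 in C57BL/6 and 1258 and 757 in AND-TCR–transgenic thymocytes. Of 19 genes 6 were tested, with a median log2 fold change of -0.25. Of these, 2 had both AND-TCR–transgenic arrays above both C57BL/6 arrays (23% of all tested probe sets) and 3 had both below (21.4% of all). At an unadjusted p under 0.05, 1 was higher (7.47% of all) and 2 were lower (6.51% of all). Cd79a, the signaling chain of the B cell receptor, read 920 and 986 in C57BL/6 and was under the limit in AND-TCR–transgenic thymocytes, with 222 and 327. With the floor it was 2.26-fold lower (95% interval of the log2 fold change -1.81 to -0.54, limma adjusted p = 0.111). Cd79a was tested only because both C57BL/6 arrays were above the limit, so its direction was set by that requirement and the floor.

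Cd79b had a log2 fold change of -0.86 and Ms4a1 (CD20) of -0.14. Cd79b was tested only because both C57BL/6 arrays were above the limit, so its direction was partly set by that requirement. Ighm had 5 tested probe sets, described after their values were seen, with log2 fold changes from -1.41 to -0.05. The brightest had -0.36 ± 0.13 (SE, limma adjusted p = 0.289). Another read 5665 and 6197 in C57BL/6 and 2820 and 1769 in AND-TCR–transgenic thymocytes (-1.41 ± 0.25 SE, limma adjusted p = 0.0554, and 0.00172 with the hybridization number as a block). The kinase Blk and the factor Pax5 read higher in AND-TCR–transgenic thymocytes. Pax5, named after its values were seen, read 691 and 843 in C57BL/6 and 943 and 1337 in AND-TCR–transgenic thymocytes (log2 fold change 0.56 ± 0.35 SE, limma adjusted p = 0.543). Blk read 1924 and 375 in C57BL/6, far apart, and 3496 and 4127 in AND-TCR–transgenic thymocytes (log2 fold change 2.08 ± 0.63 SE, limma adjusted p = 0.206). It was tested only because both AND-TCR–transgenic arrays were above the limit, so its direction was partly set by that requirement. With the block Blk was called, with an adjusted p of 0.015 from limma. Of the B cell genes 9, including Cd22, Cr2 and Ebf1, were never above the limit.

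Markers of dendritic cells summed to 18576 and 16705 in C57BL/6 and to 21013 and 19894 in AND-TCR–transgenic thymocytes, with 60% to 65.5% of each sum from Cst3. Of 18 genes 8 were tested, with a median log2 fold change of 0.11, and 1 was higher at an unadjusted p under 0.05 (7.47% of all tested probe sets). The integrin Itgax (CD11c) had a log2 fold change of -0.37, the receptor Flt3 of -0.07, the protease inhibitor Cst3 of 0.22 and the chemokine Ccl22 of 0.52. Itgax was tested only because both C57BL/6 arrays were above the limit, so its direction was partly set by that requirement. The gene at an unadjusted p under 0.05 was Naaa, named after its values were seen. It was under the limit on both C57BL/6 arrays. Its fold with the floor was 1.80 (95% interval of the log2 fold change 0.30 to 1.39, limma adjusted p = 0.186). Naaa was tested only because both AND-TCR–transgenic arrays were above the limit, so its direction was set by that requirement and the floor. Zbtb46, a defining factor of classical dendritic cells, and 4 other markers were never above the limit.

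Markers of macrophages and myeloid cells summed to 10606 and 11630 in C57BL/6 and to 12676 and 13168 in AND-TCR–transgenic thymocytes. Of 19 genes 9 were tested, 8 had positive log2 fold changes, and the median was 0.34. At an unadjusted p under 0.05, 0 were higher (7.47% of all tested probe sets) and 0 were lower (6.51% of all). In 4 of the 9, Cd68 and Tyrobp among them, both AND-TCR–transgenic arrays lay above both C57BL/6 arrays (23% of all). In 0 of the 9 both lay below (21.4% of all). Over all probe sets, 6677 of the 12844 tested had positive log2 fold changes. The receptor Csf1r had a log2 fold change of 0.21, Cd14 of 0.63 and the lysozyme Lyz2 of 0.34. Cd68 was under the limit on both C57BL/6 arrays. Its fold with the floor was 1.31 (95% interval of the log2 fold change -0.20 to 0.99, limma adjusted p = 0.559). Cd68, Csf1r, Lyz2 and Tyrobp were tested only because both AND-TCR–transgenic arrays were above the limit, so their directions were at least partly set by that requirement. Adgre1 (F4/80) and Itgam (CD11b) were among 5 markers never above the limit.

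Markers of thymic epithelium summed to 3026 and 3002 in C57BL/6 and to 3937 and 4593 in AND-TCR–transgenic thymocytes. Only the probe sets of Ccl25 and Ly75 in this U74Av2 sum were tested, and the rest came from probe sets too low to be tested. The sum is thus mostly of readings near or under the limit. The tested probe sets of Epcam, Prss16 and Il7, on other array types, are not in it. Of 20 genes 5 were tested, and the median log2 fold change was 0.16. At an unadjusted p under 0.05, 0 were higher (7.47% of all tested probe sets) and 0 were lower (6.51% of all). Epcam had a log2 fold change of 0.02, the chemokine Ccl25 of 0.19, Ly75 of -0.41 and the protease Prss16 of 0.35. Ccl25 was tested only because both AND-TCR–transgenic arrays were above the limit, so its direction was partly set by that requirement. The defining factor Foxn1 and the keratins Krt5 and Krt14 were among 10 markers never above the limit.

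**Figure D4:**
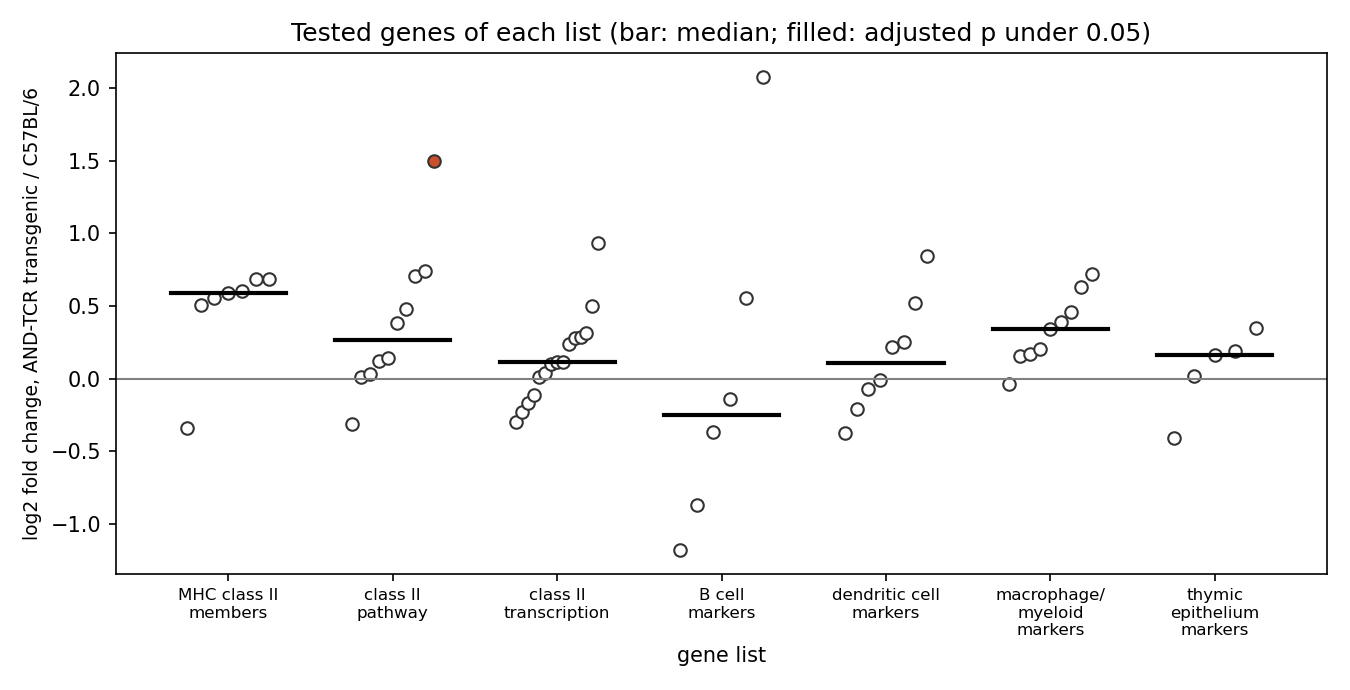
Log2 ratio between AND-TCR–transgenic and C57BL/6 thymocytes (y) for each tested gene of the class II members and of 6 gene lists (x), with a bar at the median of each list and a filled point for a gene with an adjusted p under 0.05 from limma. The class II members have a median of 0.59 and the B cell markers of -0.25, and Ctsl at 1.496 is the filled point.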

How the data were processed

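Per the paper's methods, the authors made biotinylated cRNA from total thymocyte RNA, hybridized it to Affymetrix U74Av2, U74Bv2 and U74Cv2 arrays and processed the fluorescence in Microarray Suite 4.0. The deposited values are linear intensities, with a trimmed mean of 1000.4 to 1000.9 on every array, and their exact type is not stated in the sources used here. The deposited array settings, text with no measured value, gave run day and fluidics module.

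Each array was scaled to the mean of its array type after trimming 2% at each end. The noise SD was estimated from the negative values, and the floor and detection limit were 2 noise SDs. Log2 values were computed here from the deposited intensities and tested with limma 3.58.1 in R 4.3.3 (lmFit, eBayes with a trend, 1 fit per array type), with Benjamini-Hochberg adjustment over 12844 probe sets and a threshold of 0.05. The steps were tested on simulated data. Probe sets were named from GEO's platform annotation. Array types were scaled separately and a gene of a list was taken at its tested probe set with the highest mean. No pair of replicate arrays was the same, with at most 3 identical values. The number of arrays limits the precision.

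All member probe sets were named, with the first 4 tested genes of each list and all called genes. A list with a called gene had up to 4 more. The members and lists were chosen with earlier results of these data known. Alternatives were a replicate block, other floors, filters and scalings, no trend, an inverse hyperbolic sine and leaving out each hybridization. A crossed block, list sums without their largest gene and counts restricted to probe sets detected on every array were added after the values were seen. Arrays with the same hybridization number shared a run day, but their deviations correlated at 0.0354, -0.119 and -0.232 on U74Av2, U74Bv2 and U74Cv2. Figures were drawn with matplotlib 3.10.9 in Python 3.11.15.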

Additional observations from a re-analysis of the deposited data

How the results depend on the processing

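No class II probe set was called in either direction under any of the 14 alternatives. The lowest adjusted p among them from limma was 0.0583 to 0.331 with all hybridizations, and at least 0.263 without any 1 of them. The median log2 fold change of the tested members was 0.49 to 0.68. Without 1 hybridization, H2-DMa ranged from -0.20 to 1.32, with -0.202 without the first C57BL/6 hybridization, and H2-Oa from -0.69 to 0.02, with 0.0181 without the first AND-TCR–transgenic one. The cause was not tested. H2-Ob ranged from 0.01 to 1.31 on the log2 scale under other floors and scales. At 2 times the limit H2-Oa was under the floor on all arrays and gave no value.

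With the replicate block limma called 155 probe sets higher and 151 lower, and 1 B cell marker (Blk) higher. With the numbers crossed between the groups, an alternative chosen after seeing the data, it called 229 and 226, and again 1 B cell marker higher. With any 1 array above the limit 3 were higher and 13 lower, with no filter 414 and 402 (where many probe sets sat at the floor on all 4 arrays, which makes the test unreliable), with no trend 1 and 9, and with the inverse hyperbolic sine 111 and 127. With any 1 array above the limit or no trend, 0 genes of the class II pathway list were higher and 1 thymocyte marker was lower. Without any 1 of the 4 hybridizations, with the lone array given the spread of the other group, limma called between 0 and 0 probe sets in all and 0 genes of either list, while 1290 to 1968 had an unadjusted p under 0.05. At single probe sets the block also called an Ighm one lower (adjusted p = 0.00172 from limma), which is not the one counted for that gene. It changed no other call among the members and the tested probe sets of the lists.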
